A study of Mus musculus with 6 samples.

Results

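Some miRNAs reach their mature form by routes that bypass the nuclear enzyme Drosha, and the rows of miR-320a to miR-320e, miR-484 and miR-877 were chosen here by name as members of that class. The table listed 7 such rows among 1983, namely miR-320a, b, c, d and e, miR-484 and miR-877-3p, and 4 of them stood above the lowest printable level in at least 3 of 6 libraries. miR-877-5p was not analysed here. The libraries were small RNA from epididymal white adipose tissue (WAT) of 3 wild type (Wt) and 3 Agt Tg male mice, both given as C57BL6/J. Agt Tg mice overexpress angiotensinogen, the precursor of angiotensin II, in adipose tissue under the aP2 promoter, which belongs to the fatty acid binding protein gene of adipocytes and is also active in macrophages. Age is not given in the sources used here, and the diet of both groups is given as chow in the sample labels and as low fat, for 12 weeks, in the study's methods. The level of Agt itself was not analysed here, so the transgene could not be checked. Nothing else in the labels separates the groups. The p-values refer to variation between these 3 and 3 mice, and those of fold changes also draw on the spread of the other miRNAs.

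In the usual route, Drosha cuts a hairpin out of a long transcript and Dicer then trims it to a duplex, from which 1 strand enters an Argonaute protein and guides it to mRNAs through its seed, bases 2 to 8. The hairpins of miR-320 and miR-484 are instead made as short transcripts whose own 5′ end is the start of transcription, so that only Dicer is needed. miR-877 is a mirtron, a short intron that folds into a Dicer substrate once it is spliced out. Work on insulin resistance and on phosphoinositide 3-kinase signalling has dealt with miR-320 in adipocytes. Without regard to this tissue, miR-484 is known as a regulator of the mitochondrial fission protein Fis1, and miR-877 lies in the gene of the ribosome-associated protein Abcf1.

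Positions were taken from the mouse genome annotation (GRCm38, GENCODE M21), which places the mirtron in its intron and gives the neighbours of the other hairpins. Mir320 lies on chromosome 14 from 70443510 to 70443591 on the plus strand, 62 bases from the start of Polr3d, a subunit gene of RNA polymerase III that runs the opposite way (70438757 to 70443447). Mir484 lies on chromosome 16 from 14159626 to 14159692 on the plus strand, 3582 bases before the start of Nde1 on the same strand. It is inside Marf1, which runs on the opposite strand (14109173 to 14163351). Of the 3 annotated Marf1 transcripts 1 spans the hairpin, and an exon of it overlaps part of the hairpin but not the mature miRNA. Mir877 lies on chromosome 17 from 35960730 to 35960814 on the minus strand. Those 85 bases are exactly intron 12 of the 22 introns in 1 of 8 annotated Abcf1 transcripts. They start with GU and end with AG, the usual ends of an intron. The RefSeq gene table lists 1 mouse gene numbered 320 and 0 numbered 320b, 320c, 320d or 320e, while all rows of the deposited table carry human miRNA names.

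The mature sequences that could be matched by name (RefSeq, GRCm38.p6) are shown because they separate miR-484 from the mirtron by seed, and because the arms of miR-877 begin and end at the edges of the intron. Capitals mark the seed, and all are written 5′ to 3′.
miR-484: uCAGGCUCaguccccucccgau
miR-877-5p: gUAGAGGAgauggcgcaggg
miR-877-3p: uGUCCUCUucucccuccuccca
miR-484 (chr16:14159630-14159651, plus strand) takes bases 5 to 26 of its 67-base hairpin, on the 5′ side. The 5p arm of miR-877 (chr17:35960795-35960814, minus strand) starts at base 1 of the intron, and the 3p arm (chr17:35960731-35960752, minus strand) ends at base 84 of 85. Of the 1679 mature mouse names in the table, 0 others carried the seed of miR-484, of miR-877-5p or of miR-877-3p. The named rows therefore include no pair that shares a seed among those with a sequence here.

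Deposited levels are on a log2 scale, as reads scaled to 10000000 for each library, and no value is lower than 10 on the linear scale, a lower limit termed the floor. Library totals lay between 6387766 and 10562634 reads, so that the floor stood for 6.39 to 10.6 reads. Wt replicate 2 stood apart from the other libraries: in it the summed level of a list of epididymis, testis and epithelium miRNAs (6 of 9 tested, 2 of the 9 at the floor in all libraries) was 17.07, compared with 10.03 and 10.68 in the other Wt libraries and 9.98 to 10.66 in the 3 Agt Tg libraries. Of 5 miRNAs listed for adipocytes, miR-193b-3p was at the floor in all 6 libraries and the other 4 were tested, with a summed level of 18.62 to 18.84 in Wt and 18.76 to 19.19 in Agt Tg mice. Fold changes, spreads and patterns over libraries are therefore also given without Wt replicate 2.

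The 4 rows covered a wide span of abundance. By mean level among the 329 miRNAs tested, miR-320a ranked 83rd, miR-484 ranked 105th, miR-320b ranked 218th and miR-877-3p ranked 308th. Levels are reads not corrected for length, and the mature miRNAs compared differ little in length. This order held in each of the 6 libraries, since the lowest value of miR-320a (11.01) was above the highest of miR-484 (10.77), the lowest of miR-484 (9.49) above the highest of miR-320b (6.58), and the lowest of miR-320b (5.89) above the highest of miR-877-3p (4.47). Together the 4 rows took between 0.053% and 0.086% of the reads on listed miRNAs in each library. The rows of miR-320c, miR-320d and miR-320e were at the floor in all 6 libraries, which stood for 6.39 to 10.6 reads.

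**Figure D1:**
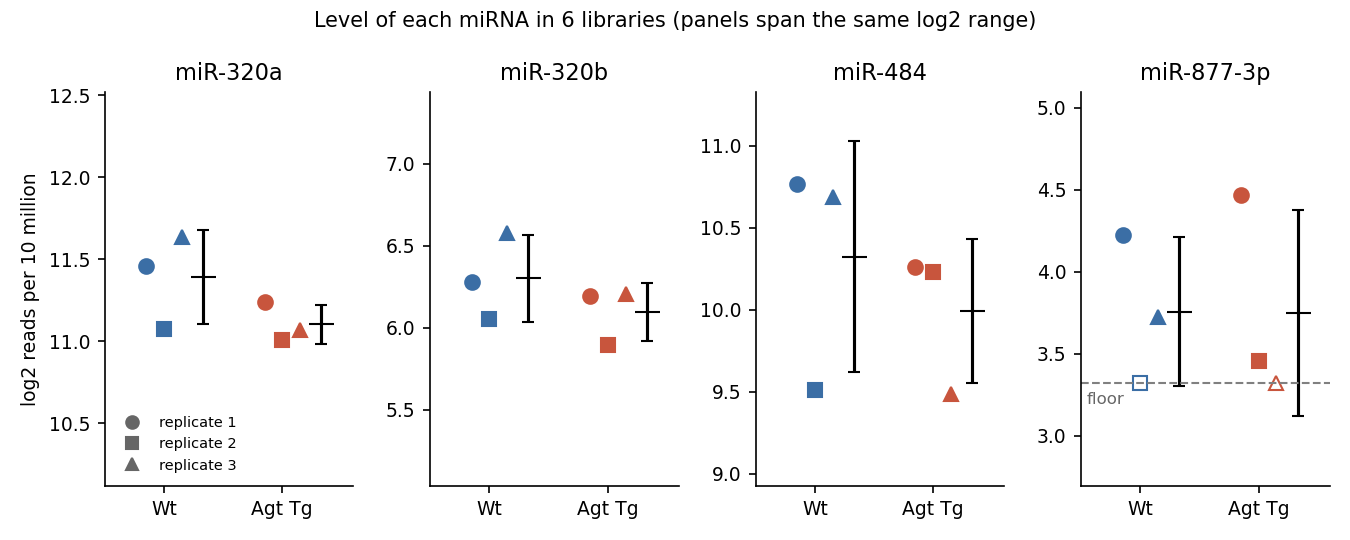
Log2 reads per 10000000 of miR-320a, miR-320b, miR-484 and miR-877-3p in each Wt and Agt Tg library, with marker shapes for replicates, open markers for values at the floor (dashed line), and horizontal ticks with bars for mean ± SD (n = 3). The genotypes overlap in every panel, miR-484 spreads from 9.49 to 10.77, and miR-320a stays between 11.01 and 11.63.

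miR-320a, the most abundant of the rows, was at 11.46, 11.07 and 11.63 in Wt replicates 1, 2 and 3 and at 11.24, 11.01 and 11.07 in Agt Tg replicates 1, 2 and 3 (log2 reads per 10000000). These values rested on 1313 to 3121 reads per library. The highest 2 libraries were Wt replicates 1 and 3, while Wt replicate 2 fell among the Agt Tg libraries, so that the genotypes overlapped. The mean was 11.39 ± 0.29 in Wt and 11.10 ± 0.12 in Agt Tg mice (SD, n = 3). The log2 fold change, Agt Tg over Wt, was −0.29 with a standard error of 0.22 and a 95% confidence interval from −0.80 to 0.23 (limma, unadjusted p = 0.235, adjusted p = 0.616). The interval included 0, and a 2-fold difference in either direction lay outside it. In bulk tissue a lower level of a miRNA in each cell and fewer cells that contain it cannot be told apart.

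miR-320b followed miR-320a closely and at a far lower level. It was at 6.28, 6.05 and 6.58 in Wt replicates 1, 2 and 3 and at 6.20, 5.89 and 6.21 in Agt Tg replicates 1, 2 and 3, from 38 to 94 reads. Highest and lowest were the same libraries as for miR-320a, namely Wt replicate 3 and Agt Tg replicate 2, and the genotypes overlapped. The log2 fold change was −0.20 (standard error 0.29, 95% confidence interval −0.88 to 0.48, limma adjusted p = 0.759). The gene table lists 1 mouse gene numbered 320 and 0 numbered 320b, so this row has no mouse gene of its own there. In humans the miR-320 genes differ by few bases, and how reads were shared out between such rows is unknown. The level of the miR-320b row is therefore not read as that of a separate mouse miRNA.

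Within each library the ratio of these rows does not depend on how libraries are scaled. miR-320b made up 2.68%, 2.99% and 2.92% of the reads on both rows in Wt replicates 1, 2 and 3, and 2.95%, 2.81% and 3.32% in Agt Tg replicates 1, 2 and 3. The 95% Wilson intervals of all 6 shares overlapped, the lowest running from 2.08% to 3.44% and the highest from 2.67% to 4.13%, and they cover counting error only. The share was thus the same in all libraries within what these read counts can resolve. The log2 level of miR-320b minus that of miR-320a was −5.09 ± 0.09 in Wt and −5.005 ± 0.13 in Agt Tg mice (SD, n = 3). The difference between genotypes, 0.08, gave a two-sided exact permutation p of 0.5, also after adjustment over the 1 test made, where 3 mice against 3 cannot go below 0.1.

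**Figure D2:**
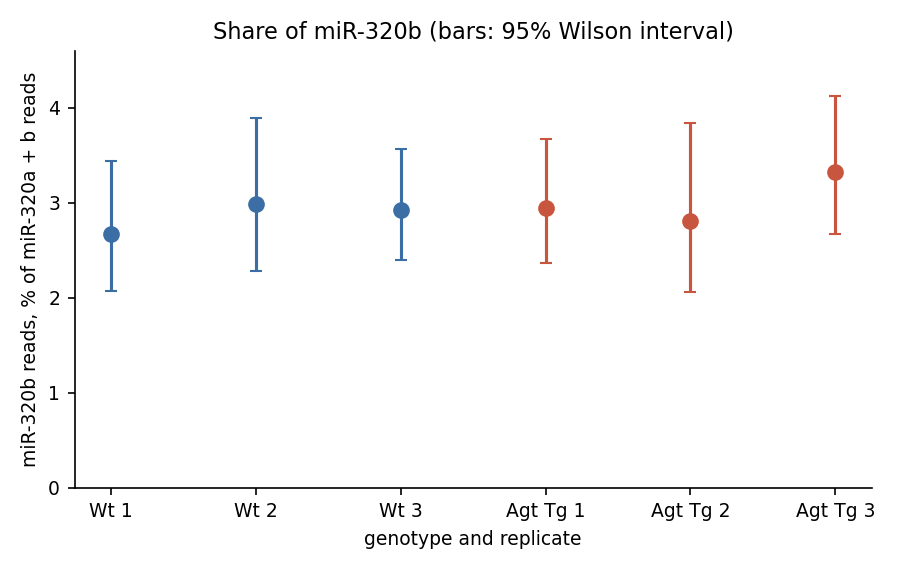
Reads of miR-320b as a percentage of reads on miR-320a and miR-320b together in each library (points, blue for Wt and red for Agt Tg), with 95% Wilson intervals as bars. The shares run from 2.68% to 3.32% and all intervals overlap.

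miR-484 varied most between mice among the 3 rows that were above the floor in all libraries. It was at 10.77, 9.51 and 10.69 in Wt replicates 1, 2 and 3 and at 10.26, 10.23 and 9.49 in Agt Tg replicates 1, 2 and 3, from 572 to 1620 reads. The 2 low libraries, Wt replicate 2 and Agt Tg replicate 3, were 1 of each genotype and were nearly equal, and the groups overlapped. On the linear scale the highest library had 2.43 times the lowest. The mean was 10.32 ± 0.70 in Wt and 9.99 ± 0.44 in Agt Tg mice (SD, n = 3), and the log2 fold change was −0.33 (standard error 0.41, 95% confidence interval −1.28 to 0.62, limma unadjusted p = 0.441, adjusted p = 0.721). A halving in Agt Tg mice lay inside this interval and a doubling lay outside it.

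The spread of miR-484 between mice of 1 genotype was 0.59 (log2 SD, pooled over both), larger than that of 33 of the 38 other tested miRNAs whose mean level was within 1 log2 unit of its own (median 0.34). For miR-320a the same SD was 0.22, and 5 of 38 miRNAs of like level varied less. miR-320b also had a low spread, 0.23, with 10 of 67 below it. Wt replicate 2 carried much of these values. Without it, the SD of miR-484 was 0.36, with 27 of 36 miRNAs of like level below it and a median of 0.29. That of miR-320a was then 0.12, with 3 of 41 below it and a median of 0.26. For miR-320b it was 0.19, with 13 of 70 below it. Neither the SD of miR-484 nor that of miR-320a moved by over 1.5 times when any other library was left out. Inside a library miR-320a exceeded miR-484 by 0.69 to 1.58 on the log2 scale, with the largest excess in Wt replicate 2 (1.56) and Agt Tg replicate 3 (1.58), and the mean excess was 1.07 ± 0.45 in Wt and 1.11 ± 0.42 in Agt Tg mice (SD, n = 3).

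**Figure D3:**
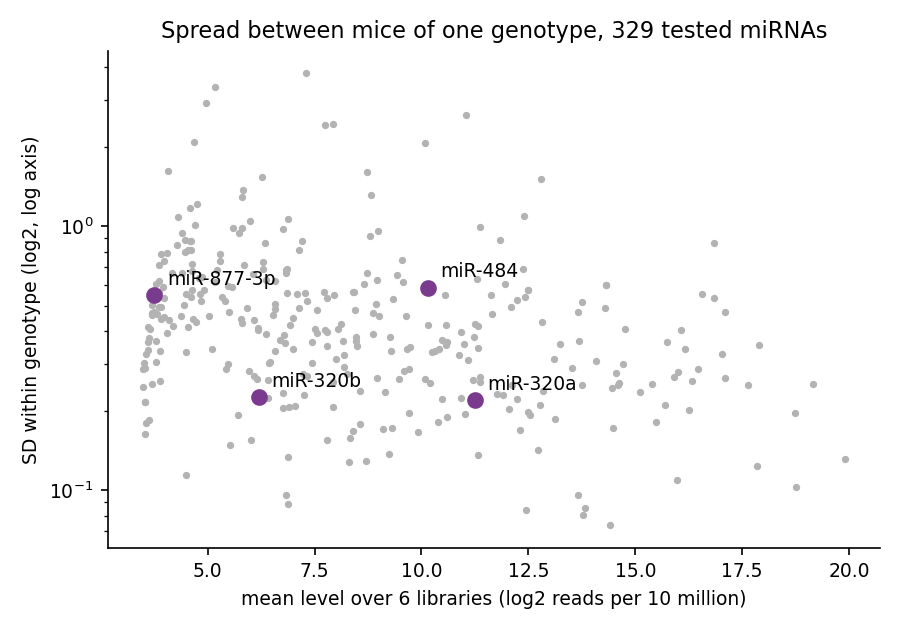
Standard deviation between mice of 1 genotype (log2 units, drawn on a log axis, pooled over Wt and Agt Tg) against mean level over 6 libraries for the 329 tested miRNAs (grey), with the 4 rows described here in purple. miR-484 at 0.59 lies in the upper part of the cloud at its level (0.36 without Wt replicate 2), while miR-320a (0.22) and miR-320b (0.23) lie in the lower part.

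Marker lists of other cell types were set beside the levels of miR-484. The summed level of 4 erythroid miRNAs (miR-451a among them), all 4 tested and 0 of them at the floor in every library, was 15.64 to 17.43 in Wt and 16.51 to 17.67 in Agt Tg mice, and it was lowest in the libraries low in miR-484, Wt replicate 2 and then Agt Tg replicate 3. This sum is mostly miR-486-5p (15.55 to 17.62), whereas miR-144-3p (8.33) and miR-144-5p (9.47) were highest of all libraries in Agt Tg replicate 3. The haematopoietic list (4 of 4 tested) ran from 15.31 to 15.36 in Wt mice, with Wt replicate 2 (15.35) between the others, and from 14.79 to 15.24 in Agt Tg mice. The epididymis, testis and epithelium list was high in Wt replicate 2 and not in Agt Tg replicate 3 (10.50). The part of these cell types in the levels of miR-484 was not tested.

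miR-877-3p, the mirtron arm, was close to the limit of detection. Among the Wt libraries it had 14 reads in replicate 1 and 13 in replicate 3, and among the Agt Tg libraries 23 in replicate 1 and 7 in replicate 2. It was at the floor in Wt replicate 2, which stood for 7.84 reads, and in Agt Tg replicate 3, which stood for 10.6 reads. As log2 values these were 4.23, 3.32 and 3.73 in Wt replicates 1, 2 and 3 and 4.47, 3.45 and 3.32 in Agt Tg replicates 1, 2 and 3. Each genotype had 1 library at the floor, and the groups overlapped over nearly their whole range. The 95% Poisson interval of the highest library, 14.1 to 33.3 reads per 10000000, overlapped that of Agt Tg replicate 2, 4.41 to 22.6. The fitted log2 fold change was −0.01 (standard error 0.42, limma adjusted p = 0.987), and since it rests partly on values at the floor it is no bound on the true difference.

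The question put to these libraries by the design is which miRNAs differ in WAT when angiotensinogen is overexpressed. The threshold, after the study's, was an unadjusted p no higher than 0.05 together with a difference of 1 or more log2 units in either direction. Of the 4 rows, 0 passed it, compared with 4.86% of the 329 miRNAs tested (2.74% higher and 2.13% lower in Agt Tg mice), and 0 of the 4 had an unadjusted p under 0.05, compared with 9.12% of all (limma). After Benjamini-Hochberg adjustment 0 of the 329 were under 0.05, which is 0%. In 0 of the 4 rows did the genotypes separate without overlap, compared with 17.6% of all. Of the 4 rows, miR-320a and miR-320b followed each other and do not count as separate miRNAs. The 4 fold changes ran from −0.33 to −0.01 with all 4 below 0, as were 67.5% of all tested, and the median over all tested was −0.19. Relative to that median, miR-484 was at −0.14, miR-320a at −0.10, miR-320b at −0.02 and miR-877-3p at 0.18. With TMM scaling of the libraries the median moved to −0.06. The fold changes themselves, not taken relative to the median, were then −0.20 for miR-484, −0.15 for miR-320a, −0.07 for miR-320b and 0.12 for miR-877-3p.

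**Figure D4:**
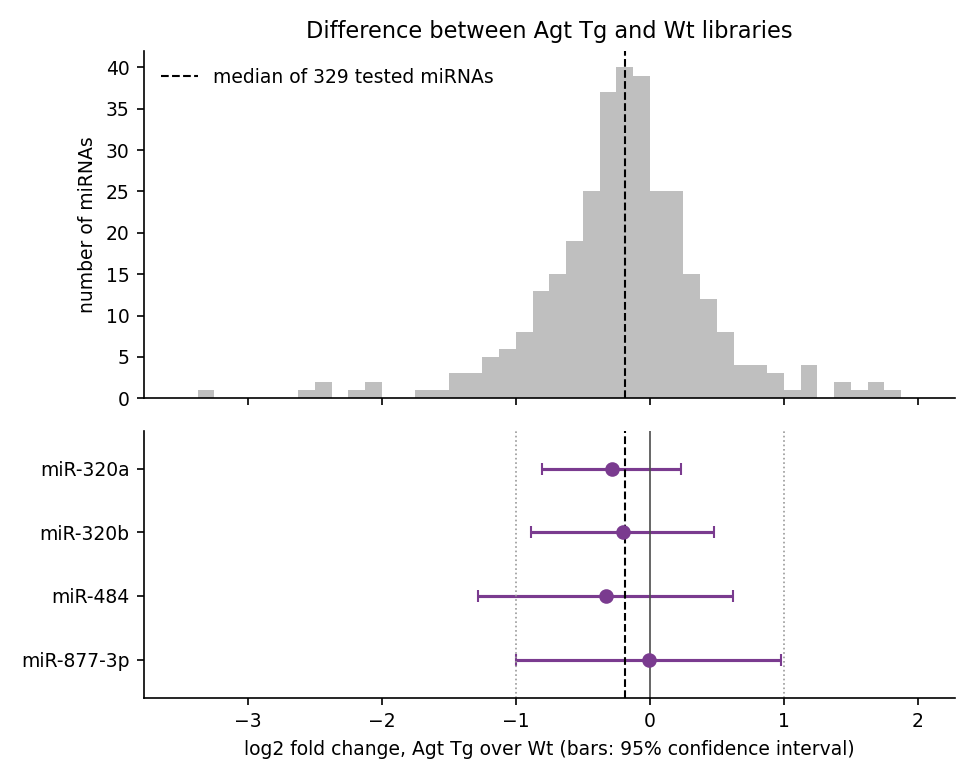
Upper panel: number of tested miRNAs by log2 fold change, Agt Tg over Wt, with their median of −0.19 dashed. Lower panel: log2 fold change of the 4 rows with 95% confidence intervals from limma, where dotted lines mark a 2-fold difference and all 4 intervals include 0.

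The same values were then obtained without the library that stood apart. Without Wt replicate 2, miR-320a was at 11.46 to 11.63 in Wt and 11.01 to 11.24 in Agt Tg mice, and miR-484 was at 10.69 to 10.77 in Wt and 9.49 to 10.26 in Agt Tg mice. The genotypes then no longer overlapped for miR-320a, miR-320b and miR-484, all 3 lower in Agt Tg mice, compared with 26.4% of the 329 miRNAs that separated in that direction without this library and 39.5% in either. Since miR-320b followed miR-320a closely, these rows do not count as 3 separate miRNAs. The log2 fold change became −0.74 for miR-484 (standard error 0.28, limma unadjusted p = 0.0407, adjusted p = 0.304) and −0.44 for miR-320a (standard error 0.17, limma unadjusted p = 0.0414, adjusted p = 0.304). Both were under the fold threshold, and an unadjusted p under 0.05 with a lower level in Agt Tg mice was found for 9.12% of all tested miRNAs in that fit, and 14.6% in either direction. For miR-320b the value was −0.33 (limma adjusted p = 0.538). The fold change of miR-484 also depended on single libraries in the other direction, being −0.08 without Agt Tg replicate 3, −0.11 without Wt replicate 1 and −0.15 without Wt replicate 3.

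**Figure D5:**
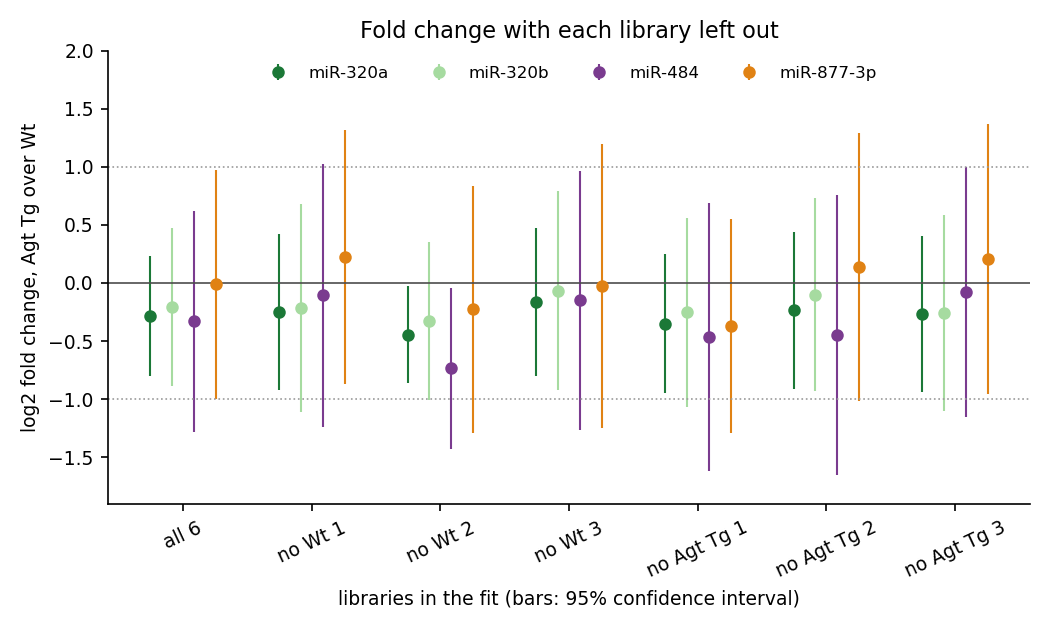
Log2 fold change, Agt Tg over Wt, of the 4 rows in the fit of all 6 libraries and with each library left out in turn (points), with 95% confidence intervals from limma as bars and dotted lines at a 2-fold difference. The intervals of miR-320a and miR-484 exclude 0 only without Wt replicate 2, where their values are −0.44 and −0.74, and miR-877-3p changes sign.

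The rows were also compared by their pattern over the 6 libraries, each centred on its own mean, by the root mean square of the differences in log2 units. The miRNAs outside the class with the most similar pattern to miR-320a were miR-125a-3p (0.06), miR-6075 (0.08) and miR-425-5p (0.09), where the median over all tested was 0.42. miR-320b, at 0.10, was the 5th closest of 328 rows. The nearest to miR-484 were miR-615-3p (0.15), let-7i-3p (0.18) and miR-139-5p (0.23), with a median over all of 0.60. In all 3, as in miR-484, Wt replicate 2 and Agt Tg replicate 3 were the lowest libraries. They were picked by likeness to that pattern, so this is no separate result. Nearest to miR-877-3p were miR-409-5p (0.12), miR-15b-3p (0.13) and miR-132-5p (0.20), all 3 above the floor in every library. Between miR-320a and miR-484 the value was 0.355, which placed miR-484 118th of 328 in order from miR-320a and miR-320a 42nd of 328 from miR-484. Without Wt replicate 2 the 3 nearest rows of miR-320a stayed the same, and miR-320b was 9th. Those of miR-484 became miR-15b-5p (0.12), miR-324-3p (0.13) and miR-615-3p (0.15), while miR-409-5p and miR-15b-3p remained nearest to miR-877-3p. Without Agt Tg replicate 1, however, the nearest to miR-877-3p were miR-335-5p (0.05), miR-499a-5p (0.05) and miR-15b-3p (0.06). The pattern of miR-877-3p rests on few reads and partly on values at the floor, so its neighbours are uncertain. These distances describe 6 libraries and share their scaling to library totals.

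Scaled to miR-191-5p, the reference that the study used for RT-qPCR, the fold change was −0.29 for miR-320a and −0.34 for miR-484. miR-191-5p itself differed by 0.01 log2 units (standard error 0.24) with an adjusted p of 0.987 in limma. The log2 level of miR-484 minus that of miR-191-5p ran from −7.35 in Agt Tg replicate 3 to −6.35 in Wt replicate 1.

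Other miRNAs made outside the usual route were set beside these rows. A list of other mirtrons, of miRNAs derived from small nucleolar RNAs and of the Dicer-independent miR-451a had 23 rows in the table, of which 19 were at the floor in all 6 libraries and 3 were tested. Most rows of the whole table were at the floor too, since 373 of 1983 were above it in at least 1 library and 329 were tested. Of the 3, 1 was at the threshold, compared with 4.86% of the 329 miRNAs tested (2.13% lower in Agt Tg mice), and 0 were at an adjusted p under 0.05 (limma). The row at the threshold was miR-3607-3p, from a small nucleolar RNA. It was lower in Agt Tg mice by a log2 fold change of −1.13 ± 0.34 (SE, limma unadjusted p = 0.0127, adjusted p = 0.382). It missed the threshold without Wt replicate 2 (−0.81), with TMM scaling (−0.997), with limma-voom (−0.989) and with scaling to miR-191-5p (−1.13, unadjusted p = 0.0719, limma). The mirtron miR-1237-5p was at 3.52 to 4.49 over the libraries with a log2 fold change of 0.17 (standard error 0.35), and miR-451a, which Argonaute 2 cuts in place of Dicer, was at 11.30 to 12.68 with 0.29 (standard error 0.36). Neither miR-3607 nor miR-1237 has a mouse gene of that number in the gene table. The tested rows of these lists and those of the class were also ordered together by mean level over the 6 libraries. They ran from miR-451a (12.23) through miR-320a (11.25), miR-484 (10.16), miR-3607-3p (9.64), miR-320b (6.20) and miR-1237-5p (4.05) to miR-877-3p (3.75).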

How the data were processed

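Small RNA from WAT was compared between 3 Wt and 3 Agt Tg mice, grouped by the sample titles. The authors mapped reads to miRBase precursors and kept reads on mature miRNAs. Neither the miRBase release nor the number of mismatches is given in the sources used here. The log2 values the authors deposited are reads scaled to 10000000 for each library and limited below at 10, which was worked out from the values (1924 of 1924 values above that floor were whole reads within 0.02 reads). The table of the series had 0 columns without a sample. Rows that exceeded the floor in 3 or more libraries, 329 in all, were fitted with limma 3.58.1 in R 4.3.3 (variance trend, genotype as the only term, Benjamini-Hochberg adjustment over all 329), after a trial on simulated data. TMM factors were computed from the recovered reads, with 30% of log ratios and 5% of mean levels trimmed. Every row of the class was named, with the 3 nearest rows by pattern for miR-320a, miR-484 and miR-877-3p, miR-191-5p, and tested rows of the lists. Muscle and liver lists had 1 tested row each, with summed levels of 8.92 to 10.73 and 6.23 to 7.18. Members and lists were chosen with earlier results of these data known. Alternatives were other log offsets, scalings and filters, limma-voom, the replicate number as a block, and leaving out each library (for spreads and patterns, chosen after seeing the data). Figures were drawn with matplotlib 3.10.9 in Python 3.11.15.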

Additional observations from a re-analysis of the deposited data

How the results depend on the processing

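For miR-320a, miR-320b and miR-484 the log2 fold change stayed below 0 under the alternatives tried, from −0.44 to −0.15, from −0.33 to −0.07 and from −0.74 to −0.08, and 0 of the 4 rows reached the threshold under any of them. The value of miR-877-3p, −0.01 in the main fit, was above 0 on log2(RPM + 1) (0.00525), with TMM scaling (0.12) and with limma-voom (0.11). It was not steady, running from −0.37 to 0.22 with each library left out, and the cause was not tested. With a mean of at least 10 RPM required, miR-320b and miR-877-3p were not in the fit. The count of all tested miRNAs at the threshold, 16, was 7 on log2(RPM + 1), 3 with that filter, which leaves 209 miRNAs, 30 without the fold limit, and 12 to 35 over the fits that left out a library, the highest without Agt Tg replicate 1. TMM scaling moved the share of higher calls from 56.2% to 71.4%. The within-library difference of miR-320b from miR-320a ran from 0.01 to 0.13 with each library left out. Deviations from the group mean had correlations of 0.22, −0.18 and −0.21 between same-numbered Wt and Agt Tg libraries. Those between libraries of different number ran from −0.30 to 0.28. With groups of 3 these values cannot decide whether the number pairs mice, which the labels do not state. The replicate block left the fold changes as they were, with adjusted p of 0.701 for miR-320a and 0.768 for miR-484 (limma), and 17 calls in all. The spread within genotype with each library left out, an alternative chosen after seeing the data, ran from 0.36 to 0.66 for miR-484 and from 0.12 to 0.25 for miR-320a, lowest without Wt replicate 2 in both. The values of miR-877-3p rest on few reads.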
